A study of Mus musculus with 10 samples.

Results

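The solute carrier genes of the mouse mammary epithelium were described here, meaning the genes whose only probe set symbol begins with Slc and a digit. That rule took 67 of the 3663 probe sets deposited, and averaging them per gene gave 46 of 2932 tested features. The 46 genes fell into 22 families. Of these, 44 encode membrane transporters, and the other 2, Slc9a3r1 and Slc9a3r2, encode scaffold proteins that carry the prefix because they bind a sodium-hydrogen exchanger. The RefSeq annotation lists 375 protein-coding mouse genes with such a symbol, and those outside the table were not analysed here. Only probe sets with a 4-fold or larger range across the arrays had been kept by the authors, so every gene in the table varied by construction. RNA came from mammary epithelium of virgin FVB females aged 6 to 8 weeks, with no transgene or treatment named in the labels. Dissociated cells were stained for CD45, CD31 and Ter119 (on blood and vessel cells) and for CD24, CD49f and Thy-1, then sorted in repeated passes and hybridised to Affymetrix whole-genome mouse expression arrays. The luminal side comprised CD24highCD49fmed and CD24medCD49f-/low cells (4 arrays) and the basal side comprised CD24medCD49fmed, Thy-1+CD24medCD49fhigh and Thy-1-CD24medCD49fhigh cells (6 arrays), which makes 5 populations of 2 arrays. The study's methods also list an antibody to CD140α, a surface protein of fibroblasts. The replicates of CD24medCD49fmed are numbered 2 and 3. Whether a population's replicates came from separate animals is not given in the labels, and each sort pooled many cells.

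Solute carriers are the largest group of membrane transporters. They move sugars, amino acids, nucleotides, metals, ions and vitamins across the plasma membrane and the membranes of organelles, either down a gradient (facilitative carriers) or uphill by coupling to sodium or protons. In the mammary gland luminal cells face the duct lumen and give rise to the cells that secrete milk, while basal cells contract and rest on the basement membrane. Families are numbered by sequence, so members of a family may carry different solutes.

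All values are log2 intensities centred so that a gene's mean over the 10 arrays is 0. A value of 1 is therefore a doubling above that gene's own mean, and levels cannot be compared between genes. The median value of 7 basal markers (Krt5, Krt14, Krt17, Acta2, Myh11, Trp63 and Oxtr) lay between 0.84 and 1.80 on the 6 basal arrays and between -2.70 and -1.37 on the 4 luminal ones. The median of 7 of 9 listed luminal markers ran from 0.64 to 1.62 on luminal arrays and from -1.89 to 0.12 on basal ones, with only Thy-1+CD24medCD49fhigh replicate 2 above 0. Some arrays stood apart from their partners. Over the 46 Slc genes, CD24medCD49f-/low replicate 1 had a correlation of 0.38 with replicate 2 but of 0.66 with CD24highCD49fmed replicate 1. Likewise the correlation of Thy-1+CD24medCD49fhigh replicate 1 was 0.48 with its partner and 0.83 with CD24medCD49fmed replicate 2. These correlations are across genes, which are not independent. Some markers of cells outside the sort also divided by lineage. The median of 5 of 8 fibroblast markers ran from -1.75 to -1.0 on luminal arrays and from -0.11 to 1.53 on basal arrays. In the same order, that of 4 of 6 pericyte markers ran from -1.17 to -0.20 and from 0.06 to 1.34. It was -1.85 to -0.19 and -0.08 to 1.53 for 2 of 6 adipocyte markers. For 4 of 7 Schwann cell markers it was -0.85 to -0.55 and -0.34 to 0.94. Gene by gene, Col1a1, Notch3, Lep and Cdh19 overlapped between the lineages. Erbb3, a Schwann cell marker, tended the other way, at 0.14 to 2.04 on luminal and -1.29 to 0.27 on basal arrays. The median of 5 of 7 keratinocyte markers was high on CD24medCD49fmed replicate 2 (2.09) and Thy-1+CD24medCD49fhigh replicate 1 (2.30), while the other 4 basal arrays (-0.91 to -0.02) overlapped the luminal ones (-1.03 to -0.47). Lcp1, the 1 of 7 leukocyte markers in the table, was at 0.56 to 1.3 on luminal and -1.46 to 0.08 on basal arrays. The part of such cells in the Slc differences was not tested, and fewer cells of a type cannot be told apart from less RNA per cell in these bulk samples.

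Most Slc genes separated the lineages, and about 2 of every 3 that did so were lower in basal cells. Averaging the 3 basal and the 2 luminal populations and taking basal minus luminal, limma called 40 of 46 Slc genes (Benjamini-Hochberg adjusted p below 0.05), with 13 higher and 27 lower in basal cells and 6 not called. Over all features 76.0% were called, 34.7% higher and 41.3% lower, so that the share of Slc genes called (87.0%) stood beside a high background, while 58.7% of Slc genes were called lower in basal cells. The median Slc difference was -1.01 on the log2 scale against -0.11 over all features, and the median absolute difference was 1.34 against 1.20. All basal arrays lay above all luminal arrays for 9 Slc genes and below them for 19. Those patterns held for 25.2% and 23.8% of all features. The heat map of centred values shows this division by transporter class, and the plot of differences gives each gene's size and interval.

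**Figure D1:**
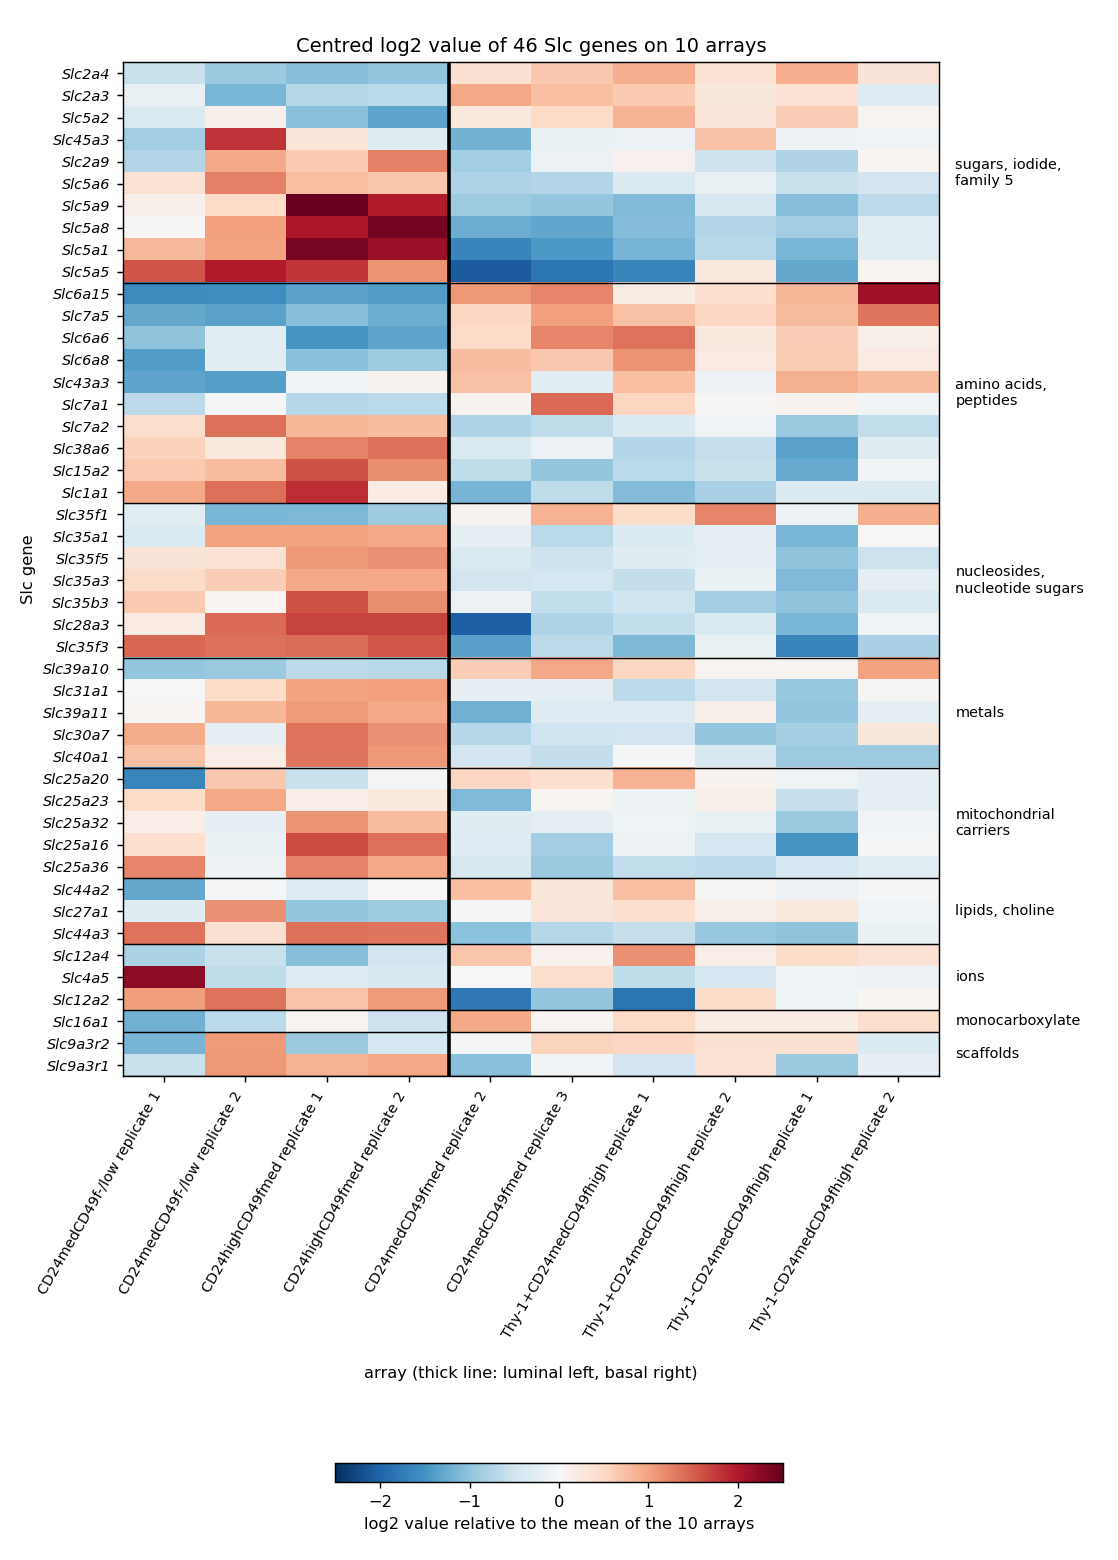
Centred log2 values (colour, from blue below to red above each gene's mean over the 10 arrays) of the 46 Slc genes in rows, grouped by transporter class, on the 10 arrays in columns, with the 4 luminal arrays left of the thick line. Genes such as Slc5a1 and Slc35f3 are red on the 4 luminal arrays and Slc6a15 and Slc7a5 on the 6 basal ones, while Slc4a5 and Slc45a3 are strongly red on 1 array each.

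**Figure D2:**
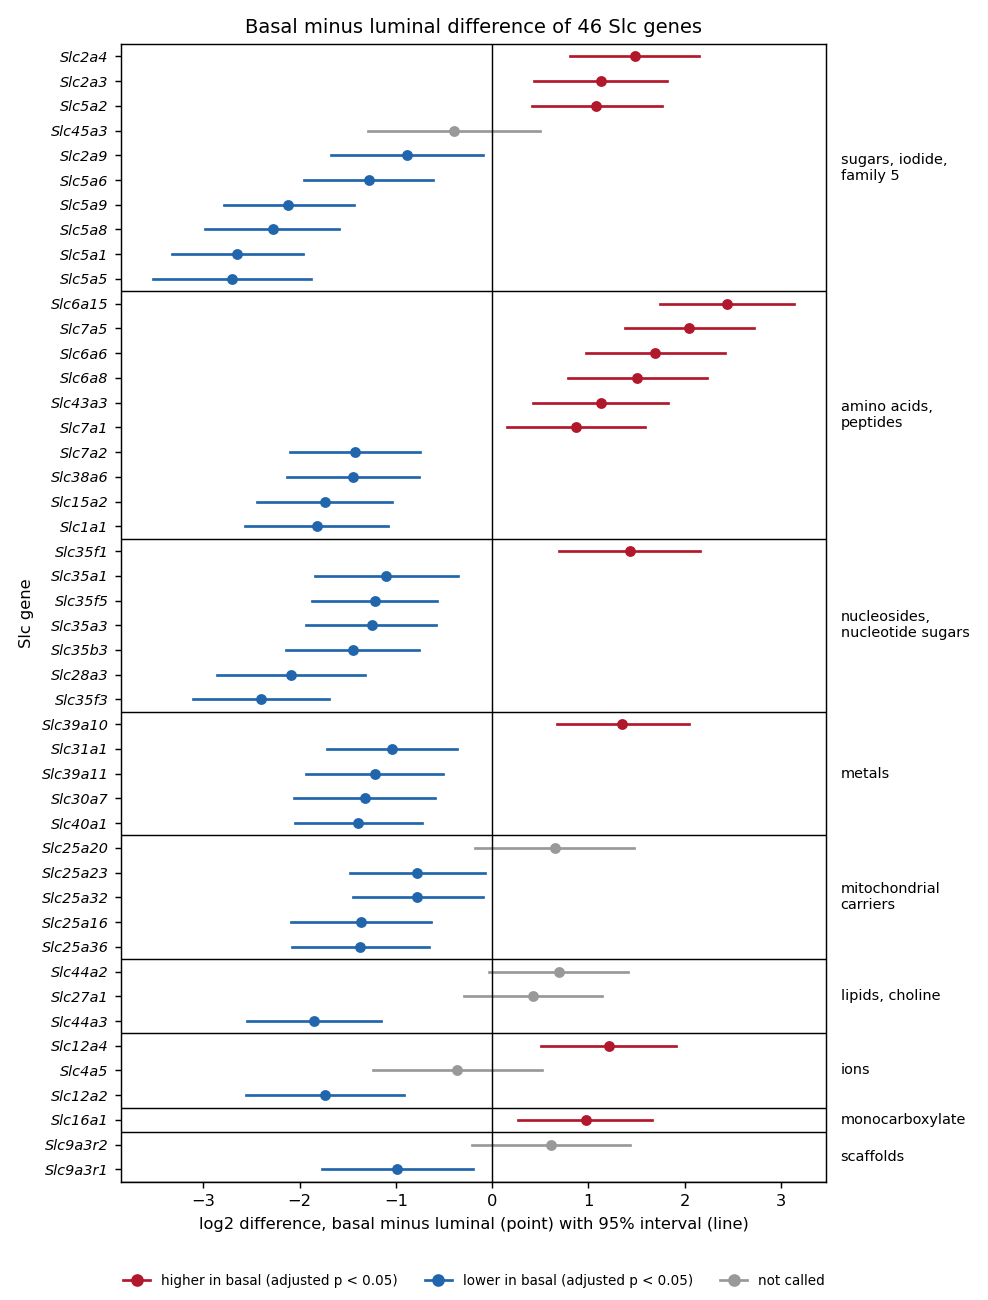
Log2 difference, basal minus luminal, of each of the 46 Slc genes (points, 6 against 4 arrays) with the 95% interval of the limma fit (lines), by transporter class. The 13 genes called higher are red, the 27 called lower blue and the 6 not called grey.

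The sodium-coupled transporters of family 5 held the 2 largest falls in basal cells, which use the inward sodium gradient to concentrate their solutes. Of 6 members, 5 were called lower in basal cells with no overlap between the lineages, and Slc5a2 was called higher. Slc5a5, the sodium-iodide symporter that concentrates iodide in the thyroid and the lactating gland, had values of 1.58 and 1.98 in CD24medCD49f-/low and 1.78 and 1.13 in CD24highCD49fmed. On basal arrays it ran from -2.08 to 0.26 with a median of -1.46. The 2 basal arrays above 0 were replicate 2 of Thy-1+CD24medCD49fhigh and of Thy-1-CD24medCD49fhigh, and both stayed under the lowest luminal array. Its difference was -2.70 ± 0.39 (SE; limma adjusted p = 9.40e-06), the largest fall among the Slc genes.

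Slc5a1, a sodium-glucose cotransporter, stood at 0.81 and 1.02 in CD24medCD49f-/low and at 2.37 and 2.16 in CD24highCD49fmed, against -1.65 to -0.26 on basal arrays (median -1.15). The lineages did not overlap, and the difference was -2.65 ± 0.33 (limma adjusted p = 1.25e-06). Slc5a8, which takes up lactate and short-chain fatty acids with sodium, gave 0.04 and 1.02, then 2.03 and 2.39 in those luminal populations, and -1.30 to -0.28 in basal cells (median -0.97). Its lowest luminal array was above every basal array, with a difference of -2.28 ± 0.33 (limma adjusted p = 9.37e-06). For Slc5a9, a cotransporter of mannose and related sugars, values were 0.13 and 0.48 in CD24medCD49f-/low, 2.48 and 1.98 in CD24highCD49fmed and -1.10 to -0.40 in basal cells (median -0.93). The difference was -2.12 ± 0.33 (limma adjusted p = 1.66e-05). Slc5a6, the sodium-dependent carrier of biotin and pantothenate, differed less, at -1.28 ± 0.32, and also without overlap. Slc5a2, the glucose cotransporter best known from the kidney tubule, ran the other way. It was at -0.36 and 0.13 in CD24medCD49f-/low, at -1.05 and -1.32 in CD24highCD49fmed and between 0.07 and 0.87 on basal arrays, so that 1 luminal array lay inside the basal range. Its difference was 1.08 ± 0.33 (limma adjusted p = 0.00592), and it rested on 1 probe set of a type whose probes can match more than 1 transcript, as did those of Slc2a3, Slc45a3, Slc25a20 and Slc25a32.

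Upstream sequence was taken from RefSeq (build GRCm38.p6) as the 300 bases from 250 before to 50 after an annotated start, and 33 of the 46 genes had an entry. The 4 shown are those with the largest difference in each direction among called genes with an entry, 2 higher in basal cells (Slc35f1 and Slc39a10) and 2 lower (Slc5a5 and Slc5a1). They lie at chr10:52690251-52690550 (plus strand), chr1:46925727-46926026 (minus), chr8:70892708-70893007 (minus) and chr5:33103969-33104268 (plus). Slc39a10 has 2 listed starts, of which the first listed is printed. Capitals mark a match to CACGTG (E-box), the only match in these 4 sequences among 4 motifs searched on both strands.

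Slc35f1: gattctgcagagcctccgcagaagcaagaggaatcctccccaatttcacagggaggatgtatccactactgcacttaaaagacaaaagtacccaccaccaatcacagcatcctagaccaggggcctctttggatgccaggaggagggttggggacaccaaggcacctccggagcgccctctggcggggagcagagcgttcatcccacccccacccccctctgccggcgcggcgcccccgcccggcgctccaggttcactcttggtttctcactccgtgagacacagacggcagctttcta
Slc39a10: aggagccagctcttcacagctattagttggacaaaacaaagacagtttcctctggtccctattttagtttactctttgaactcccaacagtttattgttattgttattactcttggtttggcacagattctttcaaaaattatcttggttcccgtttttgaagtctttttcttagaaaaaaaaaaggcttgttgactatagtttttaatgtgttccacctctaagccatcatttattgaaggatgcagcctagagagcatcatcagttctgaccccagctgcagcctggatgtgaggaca
Slc5a5: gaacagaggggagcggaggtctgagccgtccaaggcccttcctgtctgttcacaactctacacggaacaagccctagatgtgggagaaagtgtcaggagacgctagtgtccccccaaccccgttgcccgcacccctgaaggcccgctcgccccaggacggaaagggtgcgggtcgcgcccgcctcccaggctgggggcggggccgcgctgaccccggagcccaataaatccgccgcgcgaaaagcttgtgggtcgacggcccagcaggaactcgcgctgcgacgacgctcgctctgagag
Slc5a1: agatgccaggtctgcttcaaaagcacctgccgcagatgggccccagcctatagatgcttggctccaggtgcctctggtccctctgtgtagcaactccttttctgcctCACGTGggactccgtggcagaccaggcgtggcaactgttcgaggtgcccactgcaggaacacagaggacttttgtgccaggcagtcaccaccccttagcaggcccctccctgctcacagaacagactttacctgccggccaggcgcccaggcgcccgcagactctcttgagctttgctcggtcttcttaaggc

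The printed sequences differ in base composition. Slc5a5 has 67.0% G and C with 29 CpG dinucleotides, Slc5a1 60.3% with 10, Slc35f1 60.7% with 14 and Slc39a10 38.7% with 1. Over first listed starts, the median was 65.0% for the 5 genes higher in basal cells, 63.8% for the 22 lower ones and 64.2% for the 6 uncalled ones. It was 52.7% over all 27025 genes with a listed promoter, most of which are not among the features tested here. The other motifs were GCCNNNGGC (a TFAP2 site), TGATGNAAN (amino acid response element) and TGTTTAC (forkhead site), and matches of different motifs overlapped in 0 Slc sequences. GCCNNNGGC was in 16.6% of all listed promoters and in 11 of the 46 promoters listed for Slc genes, which can have several starts. Counted by gene at any listed start, it was in 2 of the 5 genes higher in basal cells (Slc12a4 and Slc39a10, at its other start) and 6 of the 22 lower ones. CACGTG was in 7.15% of all promoters and in 5 Slc promoters, and by gene in 1 higher and 3 lower ones. TGATGNAAN was in 3.95% of all and in 0 Slc sequences, and TGTTTAC in 3.65% and, of the called genes, in Slc5a6 alone. These matches describe letters in the windows and no binding was measured.

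Sugar carriers of the facilitative family 2 divided between the lineages. Slc2a4, the insulin-regulated glucose carrier of muscle and fat, was at -0.56 and -0.93 in CD24medCD49f-/low, at -1.07 and -0.99 in CD24highCD49fmed and between 0.32 and 0.91 on basal arrays (median 0.53). No luminal array reached a basal one, and the difference was 1.48 ± 0.32 (limma adjusted p = 0.000562). Slc2a3, a high-affinity glucose carrier, was also higher in basal cells (1.13 ± 0.33), though Thy-1-CD24medCD49fhigh replicate 2 at -0.31 lay below the highest luminal array at -0.18. Slc2a9, a carrier of urate, was lower in basal cells by -0.88 ± 0.38 (limma adjusted p = 0.0396). That call rested on most arrays being present: it was made in 4 of 10 leave-one-out fits, and the difference without CD24medCD49f-/low replicate 2 was -0.46. Slc45a3, a family 45 carrier known from prostate, was not called (-0.40 ± 0.43), with -0.86 and 1.80 on the 2 CD24medCD49f-/low arrays.

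Carriers of amino acids and related solutes were the class with the most genes higher in basal cells, with 6 higher and 4 lower of 10. All 3 members of family 6 were higher in basal cells with no overlap. Slc6a15, a sodium-coupled carrier of branched-chain amino acids and proline, had the largest rise of any Slc gene. It stood at -1.56 on both CD24medCD49f-/low arrays, at -1.34 and -1.39 in CD24highCD49fmed and between 0.18 and 2.11 on basal arrays (median 0.96). The luminal arrays lay close together while the basal arrays spread widely, and no luminal array reached a basal one. The difference was 2.44 ± 0.34 (limma adjusted p = 4.52e-06). Slc6a6, the taurine transporter, was at -1.01 and -0.26, then -1.48 and -1.31 in the same luminal order, and between 0.14 and 1.36 in basal cells (median 0.55), a difference of 1.69 ± 0.35 (limma adjusted p = 0.000335). Slc6a8, the creatine transporter, gave -1.40 and -0.28, then -1.05 and -0.89, against 0.21 to 1.13 in basal cells (median 0.65). Its difference was 1.51 ± 0.35 (limma adjusted p = 0.000808). For both genes CD24medCD49f-/low replicate 2 was the luminal array nearest the basal range.

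Slc7a5, the light chain of the exchanger that imports large neutral amino acids such as leucine, was higher on every basal array than on any luminal one. Luminal values were -1.27 and -1.33 in CD24medCD49f-/low and -1.07 and -1.24 in CD24highCD49fmed, and basal values ran from 0.51 to 1.34 (median 0.76). The difference was 2.05 ± 0.32 (limma adjusted p = 1.97e-05). Slc7a1, which carries arginine and lysine, was called higher in basal cells at 0.87 ± 0.35 (limma adjusted p = 0.0281), in 4 of 10 leave-one-out fits. Its highest array, CD24medCD49fmed replicate 3 at 1.41, stood far above the other 5 basal arrays, which ran from -0.07 to 0.54, and without it the difference was 0.65. Slc7a2, a carrier of the same cationic amino acids, was lower in basal cells at -1.42 ± 0.33 with no overlap, from -0.92 to -0.10 in basal and from 0.43 to 1.37 in luminal cells. Slc43a3, placed here by family though it is known to carry purine nucleobases, was higher at 1.13 ± 0.34 with overlapping ranges. The remaining 3 were lower in basal cells with no overlap: Slc1a1, the high-affinity importer of glutamate and aspartate, by -1.82 ± 0.36, the peptide transporter Slc15a2 by -1.74 ± 0.34, and Slc38a6 by -1.45 ± 0.33.

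Of the 7 genes of families 28 and 35, grouped by family number and holding carriers of nucleosides and of nucleotide sugars, 6 were called lower in basal cells and 1 higher. Slc35f3, a family 35 member proposed to carry thiamine, was nearly level across luminal arrays at 1.43, 1.38, 1.39 and 1.56, and ran from -1.66 to -0.18 on basal arrays (median -0.96). It did not overlap, and its difference was -2.40 ± 0.34 (limma adjusted p = 6.88e-06). Slc28a3, the concentrative nucleoside transporter of broad selectivity, stood at 0.21 and 1.42 in CD24medCD49f-/low, 1.69 on both CD24highCD49fmed arrays and from -2.04 to -0.07 in basal cells (median -0.69). The difference was -2.09 ± 0.37 (limma adjusted p = 7.98e-05). The Golgi carriers of activated sugars and sulfate fell less. They were Slc35b3, which brings in the sulfate donor, at -1.45 ± 0.33, Slc35a3, the carrier of UDP-N-acetylglucosamine, at -1.25 ± 0.33, and Slc35a1, the carrier of CMP-sialic acid, at -1.10 ± 0.36. Slc35f5 was lower by -1.22 ± 0.31. Slc35f1, a relative expressed in brain, was the exception and was higher in basal cells. It gave -0.27 and -1.15, then -1.12 and -0.88 in luminal cells and -0.12 to 1.22 in basal cells (median 0.66), with a difference of 1.43 ± 0.36 (limma adjusted p = 0.00162) and no overlap.

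Metal carriers showed 4 of 5 genes lower in basal cells and 1 higher. Slc40a1, ferroportin, the exporter of iron from cells, was lower by -1.39 ± 0.32 with no overlap. Slc30a7, which loads zinc into the Golgi, was lower by -1.32 ± 0.35, Slc39a11, a zinc carrier, by -1.22 ± 0.34, and Slc31a1, the copper importer, by -1.04 ± 0.33, each with at least 1 array inside the range of the other lineage. Slc39a10, a zinc importer of the plasma membrane, ran the other way. Its luminal values were -0.97 and -0.93 in CD24medCD49f-/low and -0.66 and -0.69 in CD24highCD49fmed, and its basal values ran from 0.06 to 1.00 (median 0.57). The difference was 1.35 ± 0.33 (limma adjusted p = 0.00130) with no overlap, and its 2 probe sets, which had the lowest agreement of any Slc gene (r = 0.64 over the arrays), were both called higher.

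Among mitochondrial carriers of family 25, 4 of 5 were lower in basal cells. They were Slc25a36, a pyrimidine nucleotide carrier (-1.37 ± 0.34), Slc25a16 (-1.36 ± 0.35), Slc25a23, a calcium-regulated carrier of ATP-magnesium and phosphate (-0.78 ± 0.34), and Slc25a32, the folate and flavin carrier (-0.78 ± 0.33). The last pair were called in 4 of 10 leave-one-out fits each. Slc25a20, which brings acylcarnitines in for fatty acid oxidation, was not called (0.65 ± 0.40). Of the lipid and choline group only Slc44a3, a choline transporter-like protein, was called. It was at 1.35 and 0.38, then 1.37 and 1.34 in luminal cells and from -1.02 to -0.16 in basal cells (median -0.83), so that CD24medCD49f-/low replicate 2 was the luminal array nearest the basal range. The difference was -1.85 ± 0.34 (limma adjusted p = 0.000104). Slc44a2 (0.69 ± 0.35, limma adjusted p = 0.0731) and the fatty acid carrier Slc27a1 (0.42 ± 0.35) were not called. The lactate and pyruvate carrier Slc16a1 was higher in basal cells (0.97 ± 0.33, called in 8 of 10 leave-one-out fits, with its lowest basal and highest luminal array both at 0.07), while Slc5a8, which moves similar solutes with sodium, was lower.

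The chloride cotransporters of family 12 went in opposite directions. Slc12a2, which brings sodium, potassium and chloride in, had luminal values of 1.05 and 1.36 in CD24medCD49f-/low and 0.71 and 1.05 in CD24highCD49fmed. Its basal values ran from -1.83 to 0.45 (median -0.53), with Thy-1+CD24medCD49fhigh replicate 1 lowest and its partner highest, and the difference was -1.74 ± 0.39 (limma adjusted p = 0.000756). Slc12a4, which moves potassium and chloride out, was higher in basal cells by 1.21 ± 0.34, from 0.11 to 1.13 against -1.07 to -0.48 in luminal cells. The lineages did not overlap for either gene. Slc4a5, a sodium bicarbonate cotransporter, was not called (-0.36 ± 0.42). Of the scaffold genes Slc9a3r1 was lower by -0.99 ± 0.38 (limma adjusted p = 0.0239), on 1 of its 2 probe sets and in 4 of 10 leave-one-out fits, and Slc9a3r2 was not called (0.61 ± 0.39).

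Opposite calls within a family occurred in 6 of the 10 families with at least 2 genes, in 16 pairs of genes. They were Slc2a3 and Slc2a4 against Slc2a9, Slc5a2 against the other 5 family 5 genes, Slc7a1 and Slc7a5 against Slc7a2, Slc12a4 against Slc12a2, Slc35f1 against the other 5 family 35 genes and Slc39a10 against Slc39a11. The widest gap was 3.83 on the log2 scale, between Slc35f1 and Slc35f3, followed by 3.78 between Slc5a2 and Slc5a5. The narrowest, 2.01, was between Slc2a3 and Slc2a9. These gaps are between differences, not between levels. Over all features 34.7% were called higher and 41.3% lower, and opposite calls within other gene families were not counted. Slc2a9, which is in every family 2 pair, and Slc7a1 lost their call in some leave-one-out fits.

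**Figure D3:**
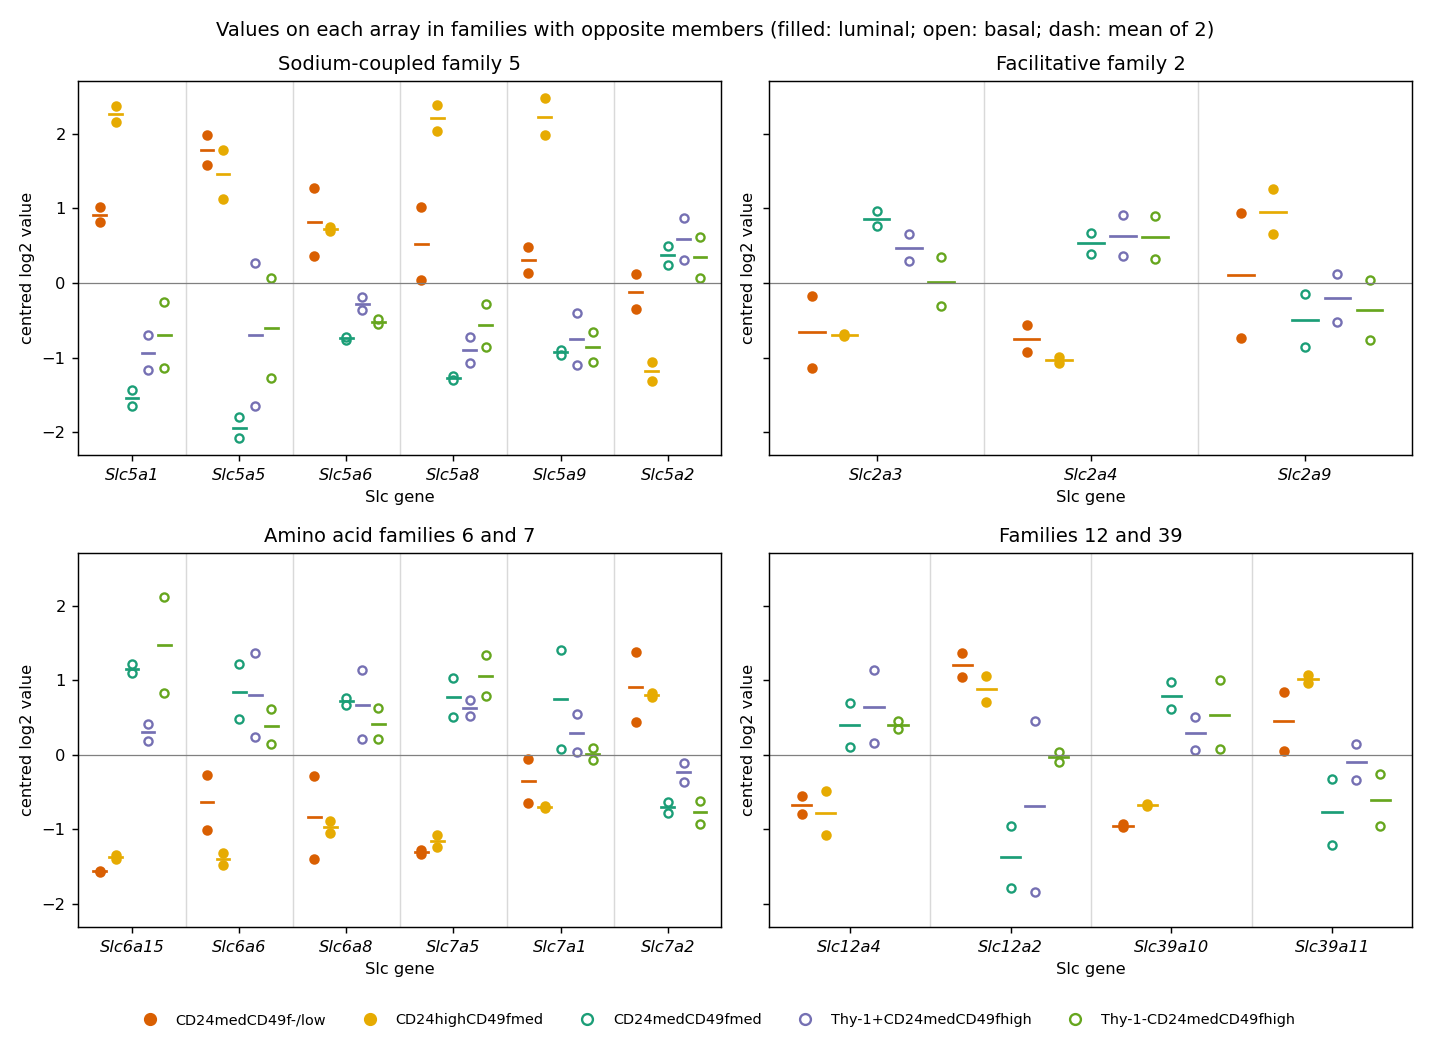
Centred log2 value on each array (circles, filled for the 2 luminal and open for the 3 basal populations) with the mean of 2 arrays (dashes), for genes of families 5, 2, 6, 7, 12 and 39. Filled circles lie above open ones for Slc5a1, Slc5a5, Slc5a6, Slc5a8 and Slc5a9 and below them for Slc6a15, Slc6a6, Slc6a8 and Slc7a5.

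For the 6 uncalled genes the arrays of CD24medCD49f-/low disagreed. Those 2 arrays differed by more than 1 on the log2 scale for 13 of 46 Slc genes, the 6 uncalled genes among them, against 1 of 46 in CD24highCD49fmed and 38.6% and 4.3% of all features. Slc4a5 had 2.23 and -0.64, Slc45a3 -0.86 and 1.80, Slc25a20 -1.63 and 0.68, and Slc9a3r2 -1.15 and 1.06. Leaving out either of a population's 2 arrays shifts a difference equally far in opposite directions. For any gene, 1 of the 2 fits therefore gives a larger difference. The sizes below thus describe only how far these arrays disagreed. Without replicate 2 the difference of Slc25a20 was 1.23, of Slc9a3r2 1.16, of Slc44a2 1.00, of Slc27a1 0.78 and of Slc4a5 -1.08, and without replicate 1 that of Slc45a3 was -1.06. Without the opposite array, Slc4a5 and Slc45a3 had the other sign, at 0.36 and 0.27. Of the 40 called genes 34 were called in all 10 leave-one-out fits, and 0 changed sign.

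**Figure D4:**
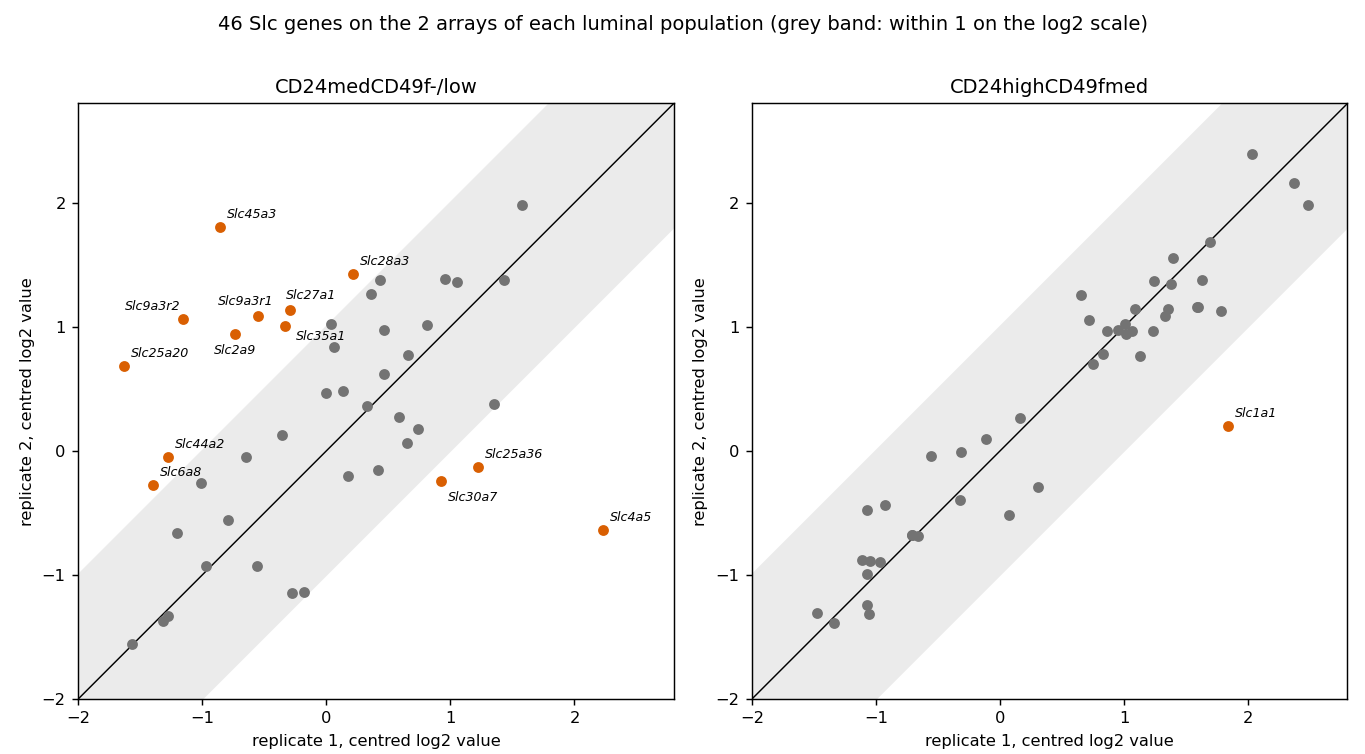
Centred log2 value of the 46 Slc genes on replicate 1 (horizontal) and replicate 2 (vertical) of each luminal population, with the line of equality and a grey band of 1 on either side. In CD24medCD49f-/low 13 genes lie outside the band, and in CD24highCD49fmed only Slc1a1 does.

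Transporters of other families were counted for comparison. Of 11 genes of the Slco, Abc and Aqp families, 3 were higher in basal cells, 6 lower and 2 not called. The share called was 81.8% (27.3% higher, 54.5% lower), beside 76.0% of all features (34.7% higher, 41.3% lower). Higher were Abca8a (2.50 ± 0.34), Abcd2 (1.45 ± 0.36) and Abcc9 (1.03 ± 0.32), and the largest falls were those of the water channel Aqp5 (-2.09 ± 0.39), the lipid transporter Abca3 (-1.93 ± 0.35) and the organic anion exporter Abcc3 (-1.55 ± 0.37).

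Within the luminal lineage no Slc gene passed the test. For CD24highCD49fmed minus CD24medCD49f-/low, 0 of 46 were called by limma, against 0.205% of all features. Before adjustment 7 of 46 had a p below 0.05, against 15.4% of all features. All arrays of CD24highCD49fmed lay above those of CD24medCD49f-/low for 20 Slc genes and below them for 6, patterns found in 37.6% and 14.2% of all features. The median Slc difference was 0.34 and that of all features 0.35, and both became -0.14 when array medians were set to 0, so the sign of the general shift depended on the scaling. The largest differences were again in family 5. Slc5a9 was at 2.48 and 1.98 in CD24highCD49fmed and 0.13 and 0.48 in CD24medCD49f-/low, a difference of 1.92 ± 0.51 (limma adjusted p = 0.0876). It passed when either CD24medCD49f-/low array was left out (1.75 and 2.10), and 1 of its 2 probe sets passed when tested alone. Slc5a8 had a difference of 1.68 ± 0.52 (limma adjusted p = 0.154), from 2.03 and 2.39 against 0.04 and 1.02, and passed without CD24medCD49f-/low replicate 2 (2.17). The arrays of the 2 populations did not overlap for either gene, nor for Slc5a1, with a difference of 1.35 ± 0.51. Slc5a2 had the opposite sign, -1.07 ± 0.50.

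The lowest differences in that comparison were those of Slc27a1 and Slc4a5, neither called. Slc27a1 was at -0.97 and -0.89 in CD24highCD49fmed and -0.29 and 1.14 in CD24medCD49f-/low, a difference of -1.35 ± 0.53 (limma adjusted p = 0.244) that became -2.07 and passed without CD24medCD49f-/low replicate 1. Slc4a5 was at -0.33 and -0.40 against 2.23 and -0.64, a difference of -1.16 ± 0.66 (limma adjusted p = 0.384). It rested on 1 array: without CD24medCD49f-/low replicate 1 it was 0.28, and without replicate 2 it was -2.59 and passed. Leaving out replicate 1 brought 4 Slc calls (8.70%), 1 higher and 3 lower, beside 10.1% of all features. Leaving out replicate 2 brought 3 (6.52%), 2 higher and 1 lower, beside 4.02% of all features. Among the other transporters 0 of 11 were called.

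Thy-1+CD24medCD49fhigh and Thy-1-CD24medCD49fhigh cells differed in 0 of 46 Slc genes by limma, against 0.0682% of all features, and in 1 at an unadjusted p under 0.05, against 2.52%. Non-overlapping arrays were found for 8 Slc genes higher and 6 lower in Thy-1+ cells, beside 17.3% and 5.22% of all features. The gene with the unadjusted call was Slc6a15, at 0.18 and 0.42 in Thy-1+ and 0.84 and 2.11 in Thy-1- cells. The populations did not overlap, and the difference was -1.17 ± 0.52 (limma adjusted p = 0.999). Slc12a2 was next lowest at -0.66, from -1.83 and 0.45 against -0.10 and 0.04, so its Thy-1+ arrays lay on either side of both Thy-1- arrays, and without Thy-1+CD24medCD49fhigh replicate 1 the difference was 0.48. The largest positive differences, also uncalled, were 0.69 for the iron exporter Slc40a1, at -0.04 and -0.39 against -0.91 on both Thy-1- arrays, and 0.64 for Slc25a20, at 0.86 and 0.08 against -0.11 and -0.22. Of the other transporters 1 of 11 was called, Abca8a at 2.74 (limma adjusted p = 0.0474). That call was lost when any 1 of the 4 arrays compared was left out (limma adjusted p from 0.0939 to 0.997) and without either CD24highCD49fmed array (limma adjusted p = 0.0662). The fibroblast markers had medians of 1.53 and 1.14 in Thy-1+ and -0.07 and -0.11 in Thy-1- cells, and 3 of 5 (Col1a1, Col1a2 and Col3a1) were higher in Thy-1+ cells without overlap. Medians were 1.34 and 0.83 against 0.07 and 0.06 for the pericyte markers, 0.94 and 0.84 against -0.34 and -0.15 for 4 of 7 Schwann cell markers, and 2.30 and -0.02 against -0.91 and -0.73 for the keratinocyte markers. Gene by gene, 3 of 4 pericyte, 2 of 4 Schwann cell and 4 of 5 keratinocyte markers were higher in Thy-1+ cells without overlap. The median of 2 of 6 adipocyte markers overlapped, at 0.76 and 0.80 against 0.93 and 0.07. The part of such cells in these differences was not tested.

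CD24medCD49fmed cells against the mean of both CD24medCD49fhigh populations also gave 0 of 46 Slc calls by limma, against 0.0341% of all features, and 1 at an unadjusted p under 0.05, against 1.77%. Its arrays lay above all 4 others for 2 Slc genes and below them for 5, beside 2.93% and 4.20% of all features. Slc5a5 had the lowest difference at -1.29 ± 0.53 (limma adjusted p = 1.00). The CD24medCD49fmed values of that gene were -2.08 and -1.80, below all 4 CD24medCD49fhigh arrays, of which replicate 1 of each population was at -1.65 and -1.28 and replicate 2 at 0.26 and 0.07. Slc12a2 followed at -1.01, from -1.78 and -0.96 against -1.83, 0.45, -0.10 and 0.04, an overlapping range. The highest were Slc2a3 at 0.62, with 0.97 and 0.76 above all 4 CD24medCD49fhigh arrays (-0.31 to 0.66), and Slc7a1 at 0.60, where replicate 3 alone was high and the difference without it was -0.07.

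A test for any difference among the 5 populations called 32 of 46 Slc genes by limma, against 58.4% of all features. The count was 14 (30.4%) without CD24highCD49fmed replicate 1 and 14 without replicate 2, beside 29.8% and 32.4% of all features. The population with the highest mean was CD24highCD49fmed for 21 Slc genes, CD24medCD49f-/low for 9, CD24medCD49fmed for 7, Thy-1+CD24medCD49fhigh for 6 and Thy-1-CD24medCD49fhigh for 3. CD24medCD49f-/low held 19.6% of the Slc maxima beside 6.86% of those of all features, and CD24highCD49fmed 45.7% beside 46.3%. The CD24medCD49f-/low share rested on its replicate 2, without which it was 10.9% (5 genes) beside 9.21%, and it was 26.1% (12 genes) beside 16.7% without replicate 1. The lowest mean was most often in CD24medCD49fmed, for 14 genes (30.4%, beside 20.7% of all features), then in Thy-1-CD24medCD49fhigh, for 11 (23.9%, beside 20.6%).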

How the data were processed

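The study's methods give RMA normalisation of all its samples, a filter of probe sets for level and for a 4-fold range, and centring on the mean. The deposited log2 values are centred over the 10 arrays. Whether these 10 arrays were normalised alone is not given. The labels name both RMA and GCRMA, with no version, and which of them made the deposited values is not resolved. Levels and signal over background cannot be read from centred values, and the number of arrays limits the precision. Probe sets were matched to symbols by identifier, and 1-symbol probe sets were averaged per gene (16 of the 46 Slc genes had several, and in 15 of these the probe sets shared 1 call for basal minus luminal). Classes follow the family number.

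All 10 arrays entered 1 limma fit (limma 3.58.1, R 4.3.3) with a mean per population, leaving 5 residual degrees of freedom to which moderation added 16.5. P-values were two-sided and adjusted over 2932 features within a comparison. They measure only the spread between these samples, which may be technical. Per-array values were given for up to 7 called genes in each direction with the largest basal minus luminal difference and, where a comparison had no call, for the 2 largest differences in each direction; others are named by class, and some of their array values were chosen after being seen. The members and lists were chosen with earlier results of these data known. The study's text names a CD24lowCD49fmed gate where the labels have CD24medCD49fmed. Figures used Python 3.11.15 and matplotlib 3.10.9.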

Additional observations from a re-analysis of the deposited data

How the results depend on the processing

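The number of Slc genes called for basal minus luminal was 40 when every array was given a median of 0, beside 78.3% of all features. It was 37 under quantile normalisation, beside 71.1%, and 40 with robust moderation of the variances, beside 75.8%. It was 40 with probe sets tested alone and 34 with a minimum log2 difference of 1. Shares over all features were not counted for these 2 settings. Where each array was left out in turn, a lone array was assumed to vary like the other populations. With array medians of 0, Slc25a23 lost its call and Slc44a2 gained one. Under quantile normalisation Slc25a23, Slc7a1 and Slc9a3r1 lost theirs. Rank products, the test named in the study's methods, was run at a p of 0.01 from 100 permutations. That cut is unlike the adjusted p below 0.05 used with limma. Rank products called 7 (1 higher, Slc6a15, and 6 lower), which is 15.2% of the Slc genes and 15.2% of all features. It also called 2 Slc genes for CD24highCD49fmed minus CD24medCD49f-/low (1 higher, Slc5a9, and 1 lower, Slc4a5), beside 3.27% of all features. For Thy-1+ minus Thy-1- it called 1 (1 lower, Slc6a15) and for CD24medCD49fmed 2 (2 lower, Slc5a5 and Slc12a2), each beside 2.22% of all features. With probe sets tested alone, 1 Slc gene was called for the luminal comparison (1 higher), and with each array left out in turn that count ran from 0 to 4 (0 to 2 higher, 0 to 3 lower), the 4 beside 10.1% of all features. The count of Slc genes with any difference among the 5 populations was 32 and ran from 14 to 43, beside 29.8% and 86.8% of all features. The median difference for the luminal comparison was -0.14 with arrays of equal median and -0.03 under quantile normalisation, and that for Thy-1+ minus Thy-1- ran from -0.10 (without Thy-1-CD24medCD49fhigh replicate 1) to 0.29 over the leave-one-out fits. Over those fits 2 Slc genes changed sign for basal minus luminal, 16 in the luminal comparison, 25 for Thy-1+ minus Thy-1- and 30 for CD24medCD49fmed. Among the genes named for the last 3 comparisons these included Slc4a5 in the luminal comparison (-2.59 to 0.28), Slc12a2 for Thy-1+ minus Thy-1- (-1.80 to 0.48) and Slc7a1 for CD24medCD49fmed (-0.07 to 1.26, and -0.06 with the replicate block). The replicate numbers were not used to pair samples in the main fit. Between populations, the differences of replicate 1 from replicate 2 had correlations from -0.198 to 0.521. The value was 0.521 for the luminal pair and 0.30 for the Thy-1+ and Thy-1- pair. Whether samples of the same number were handled together was not tested. With the number as a block 38 Slc genes were called for basal minus luminal, Slc25a32 and Slc7a1 losing their call, and 0 in the other comparisons, while calls over all features went from 6 to 33 in the luminal comparison, from 2 to 9 for Thy-1+ minus Thy-1- and from 1 to 19 for CD24medCD49fmed. Number 3 was held by CD24medCD49fmed replicate 3 alone, so the block fitted that array exactly. In this fit CD24medCD49fmed therefore rested on replicate 2, which bears on basal minus luminal and on the CD24medCD49fmed comparison. The block is thus not a check of pairing on all arrays, and the cause of the changed counts was not tested.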
